A study of Mus musculus with 319 samples.

Results

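Of 319 arrays of muscle RNA from F2 mice, 72 carried a low signal for Paip1 and 247 did not. The arrays are counted as animals and called Paip1-low and Paip1-high here. Animal number 227 stands on 2 arrays, both low, so the distinct animals in all and in the low group may be 1 fewer. Without 1 of these arrays and a high array whose labels disagree on its number, 38 probes were called in place of 41, and Nnt differed by -1.37 log2 units as before. The arrays carry a pair of Paip1 probes, and the one whose log10 ratio varied more across animals (SD 0.438 against 0.0786) set the groups. The members were thus chosen by the measured Paip1 values. A log10 ratio under -0.40, which is -1.33 on the log2 scale used from here on, placed an animal in the low group. The low group thus held 22.6% of the animals. Because Paip1 chose the groups, its own values are given as a description only, and the tests concern other genes.

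All animals descended from an intercross of the strains C57BL/6J and C3H/HeJ, both without functional ApoE, and both Paip1 groups share that background. Females and males entered the series, and each animal ate a Western diet high in fat from 8 to 24 weeks of age. RNA of each animal (Cy3) was set against 1 pool of all samples (Cy5), so a log2 ratio of 0 is the level of the pool. The labels give no genotype for any animal and a sex for only 1, so the Paip1 groups are groups of measured values and not of known alleles. With no genotype at hand, an allele that changes the transcript and one that changes how well it binds the probe cannot be told apart.

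Paip1 encodes a protein that binds the poly(A)-binding protein on the tail of an mRNA and contacts initiation factors at the other end, which favours translation. Its neighbour Nnt encodes nicotinamide nucleotide transhydrogenase, an enzyme of the inner mitochondrial membrane that uses the proton gradient to make NADPH, the reductant that keeps mitochondrial glutathione reduced. C57BL/6J mice are known to carry a partial deletion of Nnt, while C3H/HeJ mice are known as carriers of the intact gene. In an F2 animal, long stretches of a chromosome pass together from a grandparental strain, so genes on the same chromosome can differ between animals together.

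In the gene order of the mouse assembly GRCm38.p6, Paip1 lies on chromosome 13 with 810 protein-coding genes before it and 18 after it. Nnt is the gene directly before it and Tmem267 the 2nd gene after it. The stretches of 250 bases before the first listed start of Paip1 and of Tmem267 are printed because these neighbours showed opposite directions in the same animals. They come from RefSeq tables of GRCm38.p6, whose letters are those of the C57BL/6J parent. That table held no entry for Nnt. Both run 5′ to 3′ on the plus strand, at chr13:119428350-119428599 and chr13:119487836-119488085, and capitals mark the GC box, searched as GGGCGG on either strand.
Paip1: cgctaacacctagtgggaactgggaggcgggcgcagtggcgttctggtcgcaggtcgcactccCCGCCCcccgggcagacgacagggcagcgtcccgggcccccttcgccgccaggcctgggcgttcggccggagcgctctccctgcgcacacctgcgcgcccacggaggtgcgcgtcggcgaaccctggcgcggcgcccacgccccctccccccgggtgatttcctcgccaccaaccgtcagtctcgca
Tmem267: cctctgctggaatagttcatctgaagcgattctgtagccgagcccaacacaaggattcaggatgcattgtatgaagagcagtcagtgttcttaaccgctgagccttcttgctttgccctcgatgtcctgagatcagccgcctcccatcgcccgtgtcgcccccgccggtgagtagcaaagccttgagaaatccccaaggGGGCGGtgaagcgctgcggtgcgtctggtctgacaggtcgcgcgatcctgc
Each stretch held 1 GC box, which 32.7% of 32851 promoter stretches of that length hold. Neither held the TATAAA motif (12.4% of stretches, either strand) or the CCAAT motif (33.8%). The G and C content was 74.8% for Paip1 and 58.0% for Tmem267.

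The chosen Paip1 probe fell into clusters with few animals between them. In the low animals it ran between -3.68 and -1.53 with a median of -2.90, and in the high animals between -1.30 and 1.43 with a median of 0.27. The medians differ 8.99-fold. No animal lay between -2.30 and -1.53, and the threshold itself passed between animals 27 (low, -1.53) and 219 (high, -1.30). The next lowest high animals were numbers 335, 239 and 157, at -0.96, -0.95 and -0.88. The high animals were themselves uneven, with a thin place near 0.7, a value picked after the data were seen. Of them, 180 lay below it and 67 at or above it. Both sides of the series by animal number held a like share of low animals, 38 of 171 above number 180 (22.2%) and 34 of 148 up to it (23.0%).

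The other Paip1 probe did not show the clusters. It averaged 0.05 ± 0.32 in low animals and 0.09 ± 0.24 in high animals (SD, n = 72 and 247). Its values ran between -0.92 and 0.76 in the low group and between -0.85 and 0.68 in the high group, so the groups overlapped almost fully. Across animals its correlation with the chosen probe was -0.0566 within the low group and 0.260 within the high group. Which stretch of the transcript each probe covers is not known here.

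**Figure D1:**
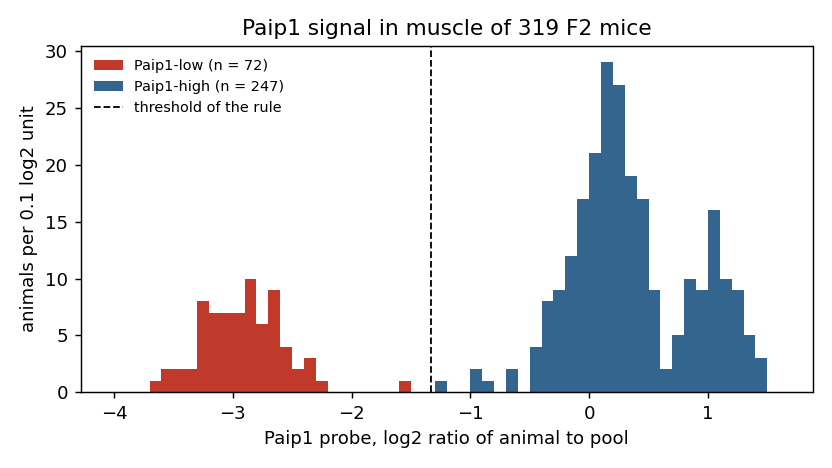
Histogram of the chosen Paip1 probe, with the log2 ratio of animal to pool on the x axis and the number of animals per 0.1 log2 unit on the y axis. The 72 low animals (red) reach up to -1.53 and the 247 high animals (blue) start at -1.30, on both sides of the dashed threshold, and the high animals thin out near 0.7.

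Nnt was lower in every Paip1-low animal than in the median Paip1-high animal. Its log2 ratio ran between -3.09 and -0.50 in the low animals with a median of -1.16, against -1.26 to 1.47 with a median of 0.10 in the high animals. Of the 72 low animals, 70 lay under the 5th percentile of the high animals (-0.52), and 16 of the 247 high animals lay at or under the highest low value, so the groups overlapped little. The mean was -1.23 ± 0.43 in low and 0.14 ± 0.48 in high animals (SD, n = 72 and 247), a difference of -1.37 ± 0.063 (SE) log2 units or 2.59-fold. The adjusted p was 3.70e-61 (limma, Benjamini-Hochberg over 23188 probes). Nnt was picked out as a neighbour of Paip1 with earlier results of these data known. It was measured by 1 probe, as were Tmem267, Mccc2 and Zfyve16. Which stretch of its transcript each of these probes covers is not known here.

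Tmem267, a transmembrane protein gene of little known function, went the other way. It ran between -1.76 and 2.21 in the low animals with a median of 0.53, against -2.83 to 0.80 with a median of -0.35 in the high animals. In 64 of 72 low animals it lay above the high median, and in 37 above the 95th percentile of the high animals (0.49), so the groups overlapped more than for Nnt. Its mean was 0.41 ± 0.76 in low and -0.50 ± 0.69 in high animals, a difference of 0.91 ± 0.095 (SE) log2 units or 1.88-fold, with an adjusted p of 1.14e-15 (limma). A small set of low animals stood apart. In 6 of them Tmem267 lay under -1, at -1.06 in animal 5, -1.76 in 55, -1.47 in 56, -1.45 in 75, -1.58 in 158 and -1.73 in 261, although their Nnt (-1.10 to -3.09) and Paip1 (-2.40 to -3.50) were in the low range. Mccc2 (-0.20 to -1.54) and Zfyve16 (-0.16 to -2.26), 2 other genes of chromosome 13, were also negative in all 6. Their medians in the low animals were 0.29 and 0.28. The SD over all probes was 0.406 to 0.995 on these 6 arrays, above the median of all arrays (0.358). Its part in the values of these 3 genes was not tested.

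**Figure D2:**
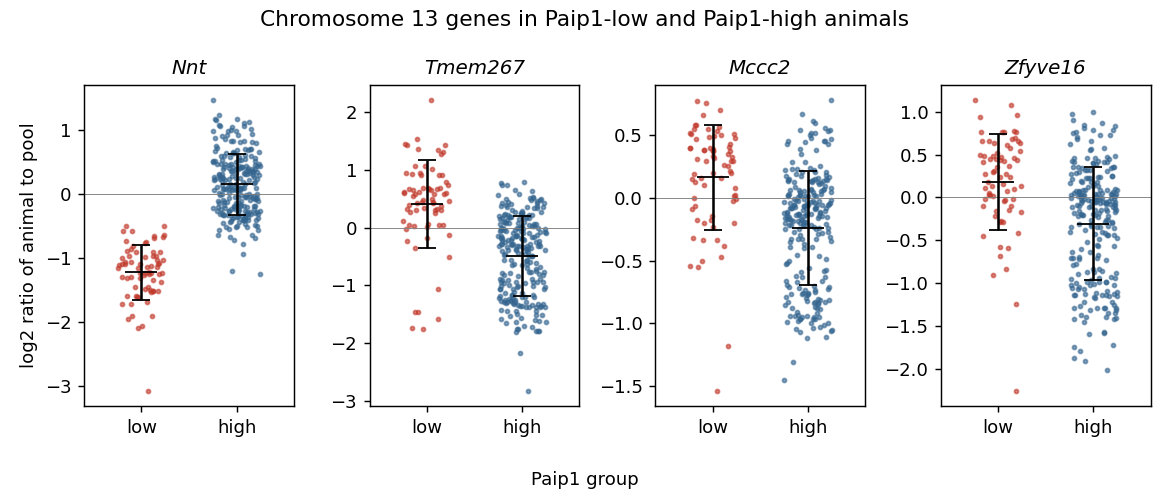
Log2 ratio of animal to pool (y axis) of 4 chromosome 13 genes in Paip1-low (left, red, n = 72) and Paip1-high animals (right, blue, n = 247). Each point is an animal and bars give the mean and SD. Nnt sits lower in the low animals, and Tmem267, Mccc2 and Zfyve16 sit higher with wide overlap.

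Beyond these neighbours, few genes close to Paip1 differed. Within 60 protein-coding genes on either side, 37 probes of 36 genes were tested, and Nnt and Tmem267 were the only genes called, which is 5.41% of these probes against 0.177% of all 23188. The other 35 probes had differences between -0.14 and 0.11 log2 units, with adjusted p values of 0.143 or more. Among the closest genes, the difference was 0.030 ± 0.020 (SE) for the growth factor Fgf10, 0.027 ± 0.022 for the chemokine Ccl28 and 0.047 ± 0.034 for the membrane glycoprotein Emb. The complex I subunit Ndufs4 had -0.0043 ± 0.038. None of these 4 passed the threshold.

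Farther along the chromosome, 6 of 440 probes were called (1.36%), 3 higher and 3 lower in the low animals. Mccc2, a subunit of the mitochondrial carboxylase of leucine breakdown, lies 91 genes before Paip1. It ran between -1.54 and 0.77 in the low animals (median 0.29) and between -1.46 and 0.78 in the high animals (median -0.14). The groups overlapped over nearly their whole range, yet 56 of 72 low animals lay above the high median, and the mean was higher by 0.41 ± 0.060 (SE) log2 units, with an adjusted p of 1.66e-07 (limma). Zfyve16, an endosomal protein gene 153 genes before Paip1, ran between -2.26 and 1.14 in the low animals (median 0.28) and between -2.01 and 0.99 in the high animals (median -0.13). It was higher by 0.49 ± 0.085 (SE), with an adjusted p of 4.23e-05 (limma) and the same count, 56 of 72, above the high median.

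The other 4 differed by less. The phosphatidylserine synthase Ptdss1 was higher by 0.15 ± 0.032 log2 units (SE, adjusted p = 0.00793, limma), with 53 of 72 low animals above the high median. The thrombin receptor F2r was lower, at -0.26 ± 0.063 (adjusted p = 0.0282), with 52 of 72 below it. Cyclin H (Ccnh), a subunit of the kinase that activates cyclin-dependent kinases, was lower at -0.14 ± 0.029 (adjusted p = 0.00219) by 1 of its 2 probes, while the other gave -0.073 with an adjusted p of 0.103. The RNA- and hyaluronan-binding protein gene Habp4 was lower at -0.14 ± 0.034 (adjusted p = 0.0324). These 6 genes lay between 91 and 300 genes before Paip1. Of the 122 probes 61 to 250 genes before it, 4 were called (3.28%), and of the 302 beyond that, 2 (0.662%). No tested gene between Mccc2 and Nnt in gene order was called in this fit without covariates. With 10 principal components as covariates, chosen after the data were seen, Nln (0.18), Map3k1 (-0.12) and Plpp1 (0.066) in that interval were called. The Paip1 probes and tested probes were among those that gave the components.

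**Figure D3:**
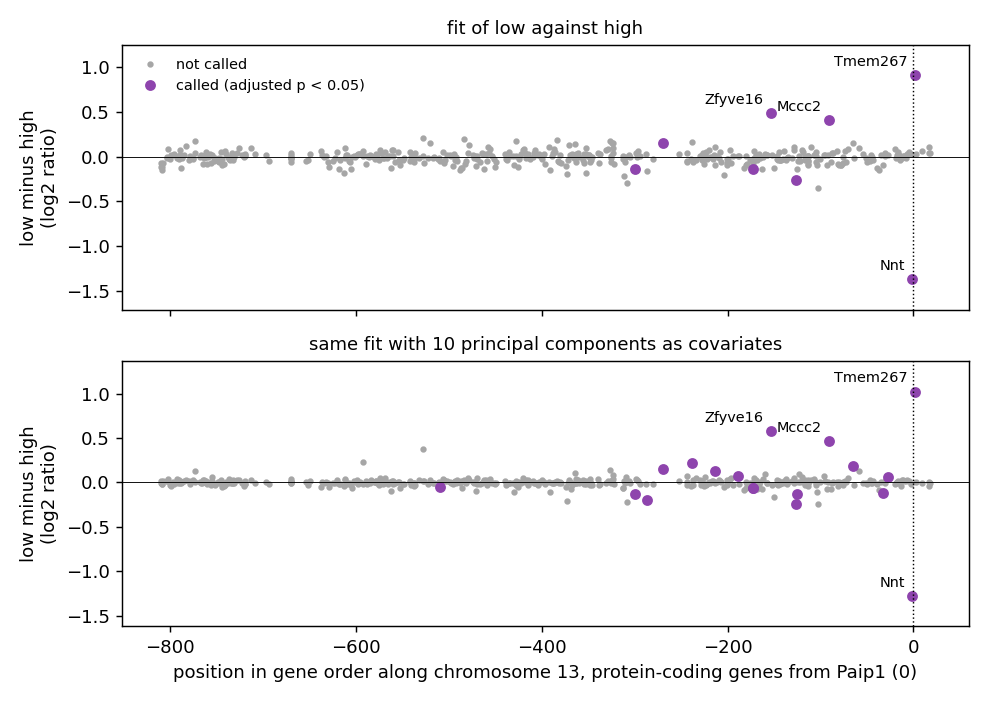
Difference of low minus high animals in log2 units (y axis) for the chromosome 13 probes with a place in the gene order, against the number of protein-coding genes from Paip1 (x axis). Purple points were called and grey were not. The upper panel shows 8 called probes led by Nnt at -1.37 and Tmem267 at 0.91, and the lower panel 18 with 10 principal components as covariates.

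On the other chromosomes, 10 of 12054 probes were called (0.0830%), 3 higher and 7 lower in the low animals, against 8 of 477 (1.68%) on chromosome 13. No other chromosome had more than 2. The differences were small. Lower were the iron-sulphur assembly factor Nubpl at -0.14 ± 0.032 log2 units (SE, adjusted p = 0.0105, limma), Zbtb11 at -0.22 ± 0.052 (0.0252), the guanylate kinase Guk1 at -0.11 ± 0.025 (0.0191), Dppa5a at -0.13 ± 0.030 (0.0168), the calcineurin subunit Ppp3cc at -0.094 ± 0.023 (0.0329) and Cyp51, the lanosterol demethylase of cholesterol synthesis, at -0.16 ± 0.040 (0.0332). The 7th was the histone chaperone Set at -0.080 ± 0.020 (0.0426), called by 1 of 8 probes, whose differences ranged from -0.17 to 0.045. Dppa5a too was called by 1 of 2 probes, and the other gave -0.11 (adjusted p = 0.0574, limma). Higher were the lysosomal channel Tpcn2 at 0.28 ± 0.069 (0.0454), the glutamate transporter Slc1a6 at 0.10 ± 0.025 (0.0329) and Ccdc33 at 0.070 ± 0.017 (0.0426), called by 1 of 2 probes. The other Ccdc33 probe went the other way, at -0.026, and correlated at -0.21 with the called one. Single animals at the threshold moved this count: with animal 219 in the low group 133 probes placed on other chromosomes were called, without it 12, and without animal 27 there were 6. Animal 219, counted as high, had an Nnt of -1.20, near the low median of -1.16. Its Tmem267 of -0.32 was near the high median of -0.35. The SD over all probes was 0.736 on its array, against a median of 0.358 over all arrays.

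The calls placed on other chromosomes depended on which arrays entered. A lymphocyte marker score split 57 arrays from the rest, which held 16 of 72 low (22.2%) and 41 of 247 high animals (16.6%). Without those arrays limma called 18 probes, 4 placed on chromosome 13, 0 placed on another and 14 without a position. Without 20 arrays of outlying SD it called 23, of which 6 were placed on chromosome 13, 0 on another and 17 had no position. With 7 marker scores as covariates, 13 calls were placed on chromosome 13, 2 on another and 22 had no position. Bulk muscle cannot tell fewer cells of a type from less RNA per cell. Lymphocyte marker probes were higher in the low animals by a median of 0.14 log2 units (0 of 13 called) and macrophage probes by 0.16 (0 of 15 called). The lymphocyte score ran between -0.77 and 2.70 in low and between -0.84 and 2.48 in high animals, and the macrophage score between -1.76 and 2.45 in low and between -1.79 and 3.11 in high animals. The median lymphocyte score was -0.284 in low and -0.319 in high animals, and the median macrophage score 0.072 and -0.207. For the neutrophil and marrow score the medians were -0.223 and -0.227. Beyond the fits named here, their part in the small differences was not tested.

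The remaining 23 of the 41 calls (0.177% of 23188 probes, with 18 probes or 0.0776% higher and 23 or 0.0992% lower) were probes without a gene position here. They made up 0.216% of 10657 such probes and 7 of the 10 calls with the smallest p. Probe 10024403640 ran between -0.20 and 0.71 in the low animals (median 0.22) and between -0.57 and 0.27 in the high animals (median -0.02). It lay above the 95th percentile of the high animals in 57 of 72 low animals, and was higher by 0.31 ± 0.022 (SE). Probe 10024410629 was higher by 0.47 ± 0.053, and probes 10024405773 and 10024409065 were lower, at -0.46 ± 0.043 and -0.41 ± 0.043. Whether these probes belong to genes of chromosome 13 is not known here.

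Within the high animals, Nnt also followed the level of Paip1, in values that the threshold did not set. Per log2 unit of Paip1, Nnt was higher by 0.59 ± 0.046 (SE, adjusted p = 6.47e-26, limma, 247 animals) and Tmem267 lower, at -0.63 ± 0.075 (1.34e-13). Mccc2 was lower too, at -0.26 ± 0.054 (1.11e-05), while Zfyve16 did not pass, at -0.15 ± 0.081 (0.116). Of the 67 high animals with Paip1 at or above 0.7, 52 had Tmem267 under -1, as had 19 of the other 180. The high animals fall into clusters, so these slopes span the gap near 0.7. In the same fit 49.9% of all probes were called, so a call there says little of a single gene. A further alternative, chosen after the data were seen, took 10 principal components of all arrays as covariates. The components were computed from all probes without a blank, with the Paip1 probes and tested probes among them. In that fit 0.129% of probes (30) were called. Of these, 8 were on chromosome 13, 2 elsewhere and 20 without a position. The chromosome 13 probes were Nnt (0.62 ± 0.032), Tmem267 (-1.33 ± 0.059), Mccc2 (-0.45 ± 0.061), Zfyve16 (-0.55 ± 0.088), Map1b (0.14 ± 0.028), Nln (-0.12 ± 0.029) and both probes of Ccnh (0.068 ± 0.016 and 0.078 ± 0.018). Of the 41 probes called between the groups, 18 were called in this fit in the direction that follows Paip1. That number was 37 without covariates and 35 with marker scores.

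**Figure D4:**
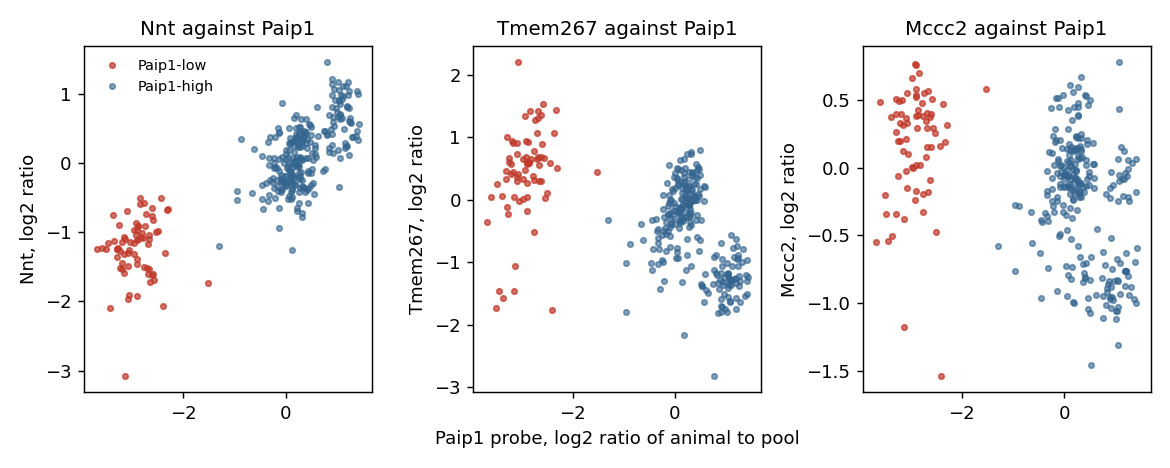
Log2 ratio of Nnt, Tmem267 and Mccc2 (y axes) against that of the chosen Paip1 probe (x axis), 1 point per animal, low animals in red and high animals in blue. Among the 247 high animals Nnt is higher where Paip1 is higher (slope 0.59), and Tmem267 (-0.63) and Mccc2 (-0.26) run the other way, with the high animals in visible clusters.

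Within the 72 low animals, 39 probes (0.168%) followed Paip1, and none of the 41 probes called between the groups was among those that did so in the matching direction. Of the 37 probes within 60 genes of Paip1, 2 were called there (5.41%). Both were lower where Paip1 was higher, with slopes of -0.24 for Ccl28 (adjusted p = 0.0412, limma) and -0.32 for Emb (0.0461). Nnt had a slope of 0.13 ± 0.14 (adjusted p = 0.659, limma) and Tmem267 of 0.68 ± 0.24 (0.154), so the direction of Tmem267 was opposite to that among the high animals, though not past the threshold. The number of calls within the low animals moved between 2 and 5814 with the processing. The genes whose values were most like those of Paip1 were Nnt (r = 0.639), Tfb2m (0.606), Hdac2 (0.591), BC052688 (0.582) and Bcap29 (0.579) across the 247 high animals. Across the 72 low animals they were Matr3 (0.535), Gapdh (0.515), Icmt (0.498), Cbx5 (0.490) and Opa1 (0.483). These are descriptions over animals that share the pool, and those over the high animals span their clusters. Within the high animals, where 5724 of 23188 probes were called lower with Paip1 and 5843 higher, the calls were lower for 11 of 13 lymphocyte, 13 of 15 macrophage, 9 of 11 adipocyte and 8 of 14 interferon response probes. Among other marker lists, 0 of 14 slow fibre, 2 of 11 neutrophil and marrow and 1 of 6 erythroid probes were lower. Keratinocyte and liver lists had 2 of 9 each, skeletal muscle 1 of 3 and Y-linked 0 of 2. Calls were mostly higher for respiratory chain and ATP synthase (9 higher, 0 lower of 16), translation factor (16 and 5 of 32) and mitochondrial redox probes (13 and 6 of 35). Of 17 cholesterol synthesis probes, 4 were higher and 6 lower.

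The genes listed as working with Paip1 or Nnt are given by their differences. At 0.177% of all probes called, a list of this size is likely to hold no call if its genes behave like all others. A count of 0 thus does not set a list apart. Of 32 probes for 25 translation factors that act with Paip1, 0 passed, with a median difference of -0.030 log2 units against 0.0013 over all probes. The poly(A)-binding protein Pabpc1 had -0.021 ± 0.047 and 0.044 ± 0.048 by its 2 probes, and Paip2, an inhibitor of that protein, had -0.099 ± 0.047 (SE). Of 35 probes for 24 genes of mitochondrial NADPH and glutathione redox, 0 passed, with a median of -0.00033. The mitochondrial peroxiredoxin Prdx3 had -0.11 ± 0.037 (adjusted p = 0.143, limma), the thioredoxin Txn2 -0.053 ± 0.026 (0.220), glutathione reductase Gsr -0.059 ± 0.078 (0.692) and the peroxidase Gpx1 0.0016 ± 0.033 (0.985). None of 16 respiratory chain and ATP synthase probes passed (median -0.054). Of 17 cholesterol synthesis probes, Cyp51 passed, lower in the low animals, and the median was -0.018. Over all probes 4798 had an unadjusted p under 0.05.

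In the marker lists, 0 of 107 probes in 11 lists were called by limma, against 0.177% of all probes, which is near that background and says nothing particular of the markers. Their median differences were 0.13 for neutrophil and marrow, 0.045 for keratinocyte, 0.043 for adipocyte, 0.042 for interferon response, 0.23 for Y-linked, 0.013 for erythroid, -0.058 for liver, -0.075 for skeletal muscle and -0.11 for slow fibre markers. Muscle identity itself could be checked on only 2 of its 16 genes, since the others had no tested named probe. Eif2s3y, a Y-linked gene, stood in its upper cluster in 38 of 72 low (52.8%) and 117 of 247 high animals (47.4%). With its level as a covariate, Nnt had -1.35 and Tmem267 stayed called, among 10 called probes of chromosome 13. No probe passed the threshold for a different effect in animal numbers above 180 and up to it (0% of 23188 by limma, with 1515 at an unadjusted p under 0.05). Nnt differed by -1.33 ± 0.081 above number 180 and by -1.42 ± 0.096 up to it, and Tmem267 by 1.05 ± 0.13 and 0.75 ± 0.14 (SE).

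**Figure D5:**
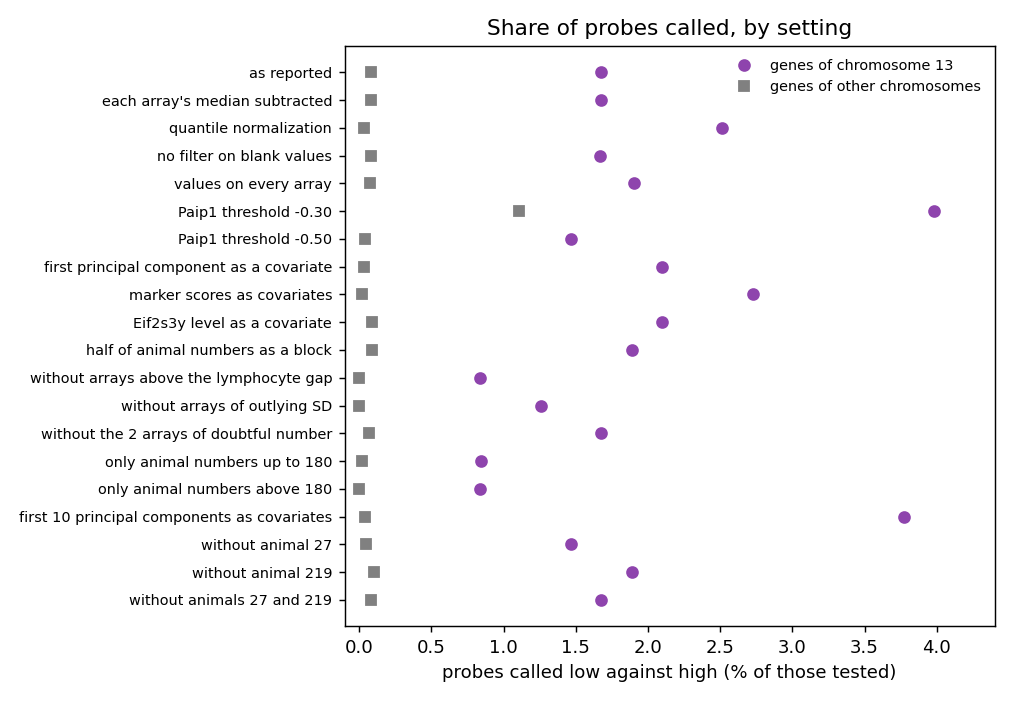
Share of probes called between low and high animals (x axis, % of those tested) on chromosome 13 (purple circles) and on other chromosomes (grey squares), for the reported fit and each alternative (y axis). The share is 1.68% against 0.0830% as reported, and the circles lie to the right of the squares in each of the settings shown.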

How the data were processed

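Muscle RNA of each animal was compared with a pool on 2-colour arrays. The authors deposited log10 ratios, 1 for each probe on each array (23382 probes, 0.654% blank). Base and direction are not stated in the labels. The values end at exactly -2 and 2, as log10 limits would. Eif2s3y had its long tail below (median -5.62 on 164 arrays) and 1.08 on 155, near the 1.04 that equal portions of a pool give, so a positive ratio means more RNA in the animal. How the authors corrected or normalized the intensities before they deposited the ratios is not given in sources used here. Of 50721 pairs of arrays, 5078 correlated below -0.3 (lowest -0.638). The dyes are those of the labels, and animals set against their own pool can oppose each other, so the direction was kept.

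Ratios were converted to log2. Probes measured on 80% of arrays or more were fitted with limma 3.58.1 in R 4.3.3 on low against high, with no covariate, leaving out both Paip1 probes. Benjamini-Hochberg adjusted p under 0.05 made a call. Standard errors are limma's moderated ones. Of 13639 probes with 1 platform symbol, 12647 matched the RefSeq table by gene ID and 4 by accession, and 988 did not match. That table gave names, chromosomes and gene order. Of tested probes 12531 had a position. Named genes were all probes of Paip1 and Nnt, the smallest adjusted p near Paip1 (up to 20), farther on its chromosome (up to 6) and elsewhere (up to 8 per direction), the 5 most correlated genes per group, and called list members. The members, the lists and the tests were chosen with earlier results of these data known. Number of arrays limits the precision. The fits were tested on simulated data with independent noise on each probe. That test does not cover variation shared by probes or outlying arrays. The 2 arrays numbered 227 correlated at 0.587 with each other and better with some other array (0.660 and 0.772), so whether they are 1 animal is not known, and both were kept, as was 1 array whose labels disagree on its number.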

Additional observations from a re-analysis of the deposited data

How the results depend on the processing

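The Nnt difference kept its direction and its side of the threshold in all 19 alternatives, between -1.56 and -1.28 log2 units, as did that of Tmem267, between 0.75 and 1.18. Mccc2 (0.38, adjusted p = 0.0694) and Zfyve16 (0.42, 0.0981) lost their calls in animal numbers up to 180 alone and kept them in the other 18. The other 14 called genes with a name lost their calls in 3 to 13 alternatives each. Among the 18 genes called as reported, no direction turned in any alternative. Directions of the other genes named in the text were not followed there. The causes of the changes that follow were not tested. Where arrays were left out, fewer animals also entered, and the part of that smaller number was not tested either. Against 41 calls as reported, a Paip1 threshold of -0.30, which moves animal 219 to the low group, gave 303, of which 19 were on chromosome 13 and 133 elsewhere. Without that animal 45 probes were called, 12 of them elsewhere. A threshold of -0.50, which moves animal 27 to the high group, gave 5 calls elsewhere in place of 10, and leaving animal 27 out gave 6. Without arrays above the lymphocyte gap 18 probes were called, 4 on chromosome 13 and 0 elsewhere, and without arrays of outlying SD 23, with 0 elsewhere. In animal numbers up to 180 alone, 15 were called (4 on chromosome 13, 2 elsewhere), and above 180 alone, 13 (4 and 0). Calls elsewhere numbered 4 after quantile normalization and, as covariates, 4 for principal component 1, 2 for marker scores and 5 for 10 components. Calls on chromosome 13 numbered 13 with marker scores and 18 with 10 components, where 31 of the 59 calls were among the 41. The slope within high animals gave 11567 calls and 30 with 10 components. Within low animals it gave 39, against 23 once each array was centred on its median, 5814 after quantile normalization, 2 given component 1, 3 given marker scores, 123 given Eif2s3y, 1728 below the lymphocyte gap, 1226 without arrays of outlying SD and 83 with 10 components. The 10 components and the fits without animals 27 and 219 were chosen after the data were seen. All components were computed from probes that include those of Paip1 and those tested. No paired analysis was possible because all animals form 1 labelled group with a number each.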
